A study of Mus musculus with 34 samples.

Results

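Rab GTPases of vesicle traffic were followed through an array study of mouse spleen dendritic cells (DCs), which take up antigen and show it to T cells. Members were the genes whose symbol is Rab followed by a number and at most a letter and a further digit, Rab7b left aside, and whose probe set was annotated to exactly 1 symbol. The rule gave 57 Rab genes, measured by 65 probe sets, of the 22180 genes with such a probe set. Where a gene had several probe sets, the one with the highest mean stood for it.

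A Rab protein is a small GTPase that marks a membrane of the cell, such as the Golgi, the early endosome or the lysosome. Guanine nucleotide exchange factors (GEFs) load it with GTP on that membrane, where it recruits motors, tethers and other effectors, and GTPase-activating proteins (GAPs) of the TBC family switch it off. A prenyl group, added with the help of Rab escort proteins, anchors it. In DCs these routes carry phagosomes, antigen, MHC molecules and Toll-like receptors, and CD8+ DCs are known for cross-presentation, the display of engulfed antigen to CD8 T cells.

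All mice were labelled C57BL/6, and all cells were sorted from spleen by FACS, a sort based on fluorescent surface stains. The sorted subsets were CD8+ and CD8- DCs of wild-type (WT) mice and of mice labelled Mst1/2-KO, genotype Mst1/2-/-, with 4 arrays in each of the 4 groups. Mst1 and Mst2 are kinases of the Hippo pathway. Total DCs were measured on 4 WT and 3 Mst1/2-KO arrays, and no stimulation was labelled for these or for the sorted subsets. Anti-CD40, an antibody against an activating receptor of DCs, was given in the other experiments, whose mice were mostly Rag1-/- and so lack mature T and B cells. Experiment 1 held 4 Rag1-KO and 3 Rag1-KO p38-KO arrays, genotype Rag1-/-/p38-/-, all with anti-CD40, where p38 is a kinase of stress signalling. In experiment 2, anti-CD40 was given to 2 Rag1-KO arrays and 1 WT array, and 1 further Rag1-KO array was non-stimulated. The labels give no age, no number of animals behind an array, no cell type in which a gene was deleted and no exon removed. They do not say that the arrays of a group were separate mice, so p-values measure only the spread between these arrays, which may be technical. In bulk samples, fewer cells of a type and less RNA per cell cannot be told apart.

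Values are deposited log2 signals, and differences between groups are given on that log2 scale with their standard error (SE). A Rab gene is called higher or lower where limma's Benjamini-Hochberg adjusted p, taken over all 22180 genes, was under 0.05. Levels were compared only within an experiment label, because the values carry a different constant per probe set in each. As a rough filter on dim probe sets, genes were also split at the median of their mean signals over all arrays, which left 45 Rab genes above and 12 below. The split mixes probe sets and labels whose levels are not comparable, so it orders no genes by expression. The arrays had median signals from 4.11 to 4.2 (log2), and the correlation between arrays of a group lay between 0.986 and 0.996.

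The labels were checked first. Stk4, which encodes Mst1, lay between 8.26 and 8.46 in WT CD8+ DCs and between 7.22 and 7.64 in Mst1/2-KO CD8+ DCs. It lay between 8.15 and 8.44 in WT and between 7.39 and 7.67 in Mst1/2-KO CD8- DCs, and between 8.44 and 8.58 in WT and between 7.32 and 7.50 in Mst1/2-KO total DCs. Its adjusted p was 0.000166, 0.000211 and 0.00154 in that order, and the remaining signal cannot be read further, since the labels do not say which part of the gene was removed. Stk3, which encodes Mst2, was not analysed here. In WT cells all 9 measured markers of CD8+ DCs were higher in the CD8+ than in the CD8- sort, with a mean signal of 10.87 to 11.08 against 7.63 to 8.19. Of 10 markers of CD8- DCs, 9 were lower, with a mean signal of 5.38 to 5.72 against 8.88 to 9.08.

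The sorted WT subsets differed in many Rab genes. Of 57, 21 were called, 16 higher and 5 lower in CD8+ than in CD8- DCs, which is 36.8% against 21.0% of all genes tested, with 2444 genes higher and 2219 lower. Among genes above the median gene the shares were 46.7% of Rab genes and 37.5% of all. The groups did not overlap for 21 Rab genes (36.8%), against 22.4% of all genes. The Rab genes highest in CD8+ DCs relative to CD8- DCs were Rab32, Rab39, Rab43 and Rab13, and the lowest were Rab37, Rab6b and Rab24.

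**Figure D1:**
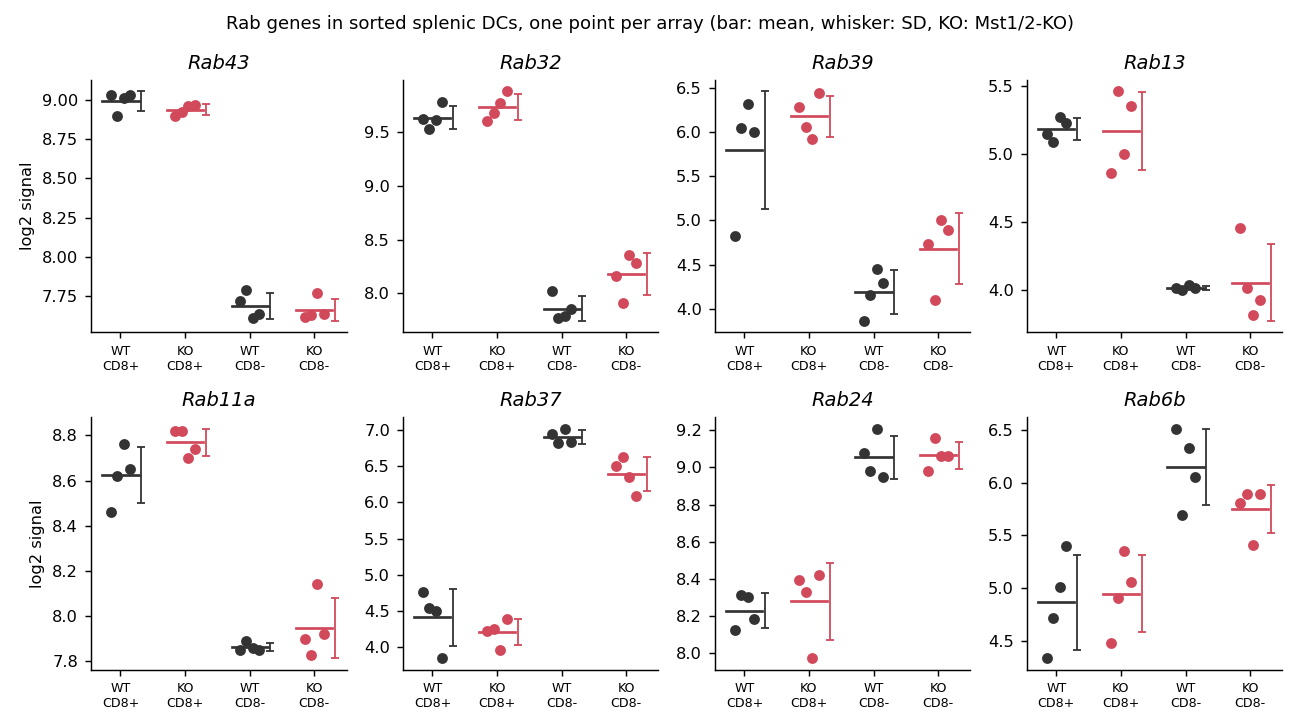
Log2 signal (vertical axis) of 8 Rab genes in the 4 sorted groups, each point an array, the bar the group mean and the whisker 1 SD over 4 arrays. The 4 CD8+ and 4 CD8- arrays of a genotype do not overlap for any of the 8 genes, in WT or in Mst1/2-KO.

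Promoter windows of the genes that moved in the same direction in both genotypes are shown for the 3 largest rises and the largest fall that had an entry with no other gene in the window, which is the 250 bases before the annotated start of transcription. They were taken from RefSeq for mouse build GRCm38.p6 and run 5′ to 3′ on the gene's own strand, which is the minus strand for all 4. Rab32 lies at chr10:10558208-10558457, Rab39 at chr9:53706233-53706482, Rab43 at chr6:87812165-87812414 and Rab21 at chr10:115315592-115315841. Capitals mark matches to the motifs searched.
Rab32: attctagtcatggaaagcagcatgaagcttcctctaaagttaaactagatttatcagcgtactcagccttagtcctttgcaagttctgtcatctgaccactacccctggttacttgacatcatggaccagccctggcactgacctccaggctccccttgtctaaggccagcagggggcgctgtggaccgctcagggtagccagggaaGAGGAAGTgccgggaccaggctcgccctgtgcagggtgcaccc
Rab39: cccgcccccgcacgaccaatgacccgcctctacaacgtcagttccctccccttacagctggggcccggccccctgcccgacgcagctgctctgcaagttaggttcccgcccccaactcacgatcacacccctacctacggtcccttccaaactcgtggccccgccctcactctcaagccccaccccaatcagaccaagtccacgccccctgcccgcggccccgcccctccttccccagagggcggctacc
Rab43: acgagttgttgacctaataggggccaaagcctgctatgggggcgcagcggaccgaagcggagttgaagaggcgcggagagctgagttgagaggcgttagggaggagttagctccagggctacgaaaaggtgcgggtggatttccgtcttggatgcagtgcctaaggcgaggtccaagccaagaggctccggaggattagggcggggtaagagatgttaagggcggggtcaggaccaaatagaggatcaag
Rab21: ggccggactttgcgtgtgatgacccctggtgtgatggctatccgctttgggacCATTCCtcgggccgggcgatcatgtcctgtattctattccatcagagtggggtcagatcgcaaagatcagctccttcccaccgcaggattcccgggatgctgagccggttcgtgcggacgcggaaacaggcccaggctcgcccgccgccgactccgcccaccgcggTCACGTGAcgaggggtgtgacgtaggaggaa

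The motifs were searched on both strands as the letters GAGGAAGT (PU.1 type), TGANTCA (AP-1), GGAATG (TEAD) and TCACGTGA (an E-box of the CLEAR type, named for lysosome genes). None of these motifs contains another. Rab32 held a PU.1-type match, and Rab21 held a TEAD match on the opposite strand and the E-box, while Rab39 and Rab43 held none of these letters. Over the promoter windows of all 27025 entries, the PU.1 type was found in 2.42%, the TEAD letters in 12.6% and the E-box in 0.803%, and in 2, 6 and 2 of the 47 Rab genes with a window. The AP-1 letters were found in 6.85% of all windows and in 1 Rab gene. A match is a description of the letters, not of a bound site or a cause. Rab30 and Rab37 had no entry.

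Counts by role follow, each to be read beside the 21.0% (WT) and 19.2% (Mst1/2-KO) of all genes called, and no role group was tested as a group. Rab32 serves lysosome-related organelles together with Rab38, and the BLOC-3 complex is the GEF of both. Its WT signal was 9.62, 9.53, 9.61 and 9.78 in CD8+ DCs and 8.02, 7.77, 7.79 and 7.85 in CD8- DCs. Every CD8+ array lay above every CD8- array. The difference was 1.78 ± 0.10 (SE, n = 4 arrays a group), or 3.43-fold, with an adjusted p of 2.75e-10. In Mst1/2-KO cells the arrays read 9.60, 9.68, 9.77 and 9.88 against 8.16, 7.91, 8.36 and 8.28, again apart, with a difference of 1.55 ± 0.10 (adjusted p = 1.9e-09). Rab38 was not called in either genotype. Rab7, which guides late endosomes to lysosomes, was higher by 0.39 ± 0.06 in WT (adjusted p = 0.000167) and by 0.28 ± 0.06 in Mst1/2-KO CD8+ DCs (adjusted p = 0.0042). Of the 8 Rab genes of late endosomes and lysosomes, these 2 were called in each genotype, a share near that of all genes.

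Of the 16 Rab genes of the endoplasmic reticulum (ER) and Golgi, 7 were higher and 1 was lower in CD8+ DCs, in WT and in Mst1/2-KO alike. Rab43, a Golgi Rab that has been linked to cross-presentation, read 9.03, 8.90, 9.01 and 9.03 in WT CD8+ DCs and 7.72, 7.79, 7.61 and 7.64 in WT CD8- DCs. Both groups were tight and far apart. The difference was 1.30 ± 0.07, or 2.46-fold, with an adjusted p of 9.15e-11. Mst1/2-KO cells read 8.90, 8.92, 8.96 and 8.97 against 7.62, 7.63, 7.77 and 7.64, a difference of 1.27 ± 0.07 (adjusted p = 1.52e-10). No array of the other subset came within this range.

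Rab39, a Rab of the Golgi and phagosomes, varied more between arrays. It read 4.82, 6.05, 6.32 and 6.01 in WT CD8+ DCs and 3.86, 4.15, 4.45 and 4.29 in WT CD8- DCs, so that replicate 1 was the lowest array of the CD8+ group and still above the CD8- group. The difference was 1.61 ± 0.26, or 3.06-fold (adjusted p = 0.000153). In Mst1/2-KO cells the values were 6.29, 6.06, 5.93 and 6.45 against 4.73, 4.1, 5.00 and 4.89, a difference of 1.5 ± 0.26 (adjusted p = 0.000338). The remaining Golgi and ER genes moved less. Rab33b, a Golgi Rab that binds the autophagy factor Atg16l1, was higher by 0.66 ± 0.11 in WT CD8+ DCs. Rab6a, which runs retrograde traffic at the Golgi, was higher by 0.59 ± 0.10, Rab1b, which serves ER-to-Golgi transport, by 0.42 ± 0.10, and Rab2a, of the same route, by 0.32 ± 0.07, with adjusted p between 0.000217 and 0.00452. Rab19 was higher by 0.90 ± 0.15.

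Rab6b, a paralog of Rab6a that is abundant in brain, went the other way. It read 4.34, 4.72, 5.01 and 5.40 in WT CD8+ DCs and 6.51, 5.69, 6.33 and 6.05 in WT CD8- DCs. The highest CD8+ array stayed below the lowest CD8- array. The difference was -1.28 ± 0.22, or 2.42-fold lower (adjusted p = 0.00029), and a second probe set of Rab6b gave -1.26. In Mst1/2-KO cells, with 4.48, 4.91, 5.35 and 5.06 against 5.81, 5.89, 5.41 and 5.89, the difference was -0.80 ± 0.22 (adjusted p = 0.0148), and the call was lost without replicate 1 of the Mst1/2-KO CD8+ group.

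Among 12 Rab genes of recycling endosomes and delivery to the surface, 5 were higher and 1 was lower in CD8+ DCs of either genotype. Rab11a, which marks the recycling endosome, read 8.46, 8.62, 8.76 and 8.65 in WT CD8+ DCs and 7.85, 7.89, 7.86 and 7.85 in WT CD8- DCs. In Mst1/2-KO cells it read 8.82, 8.82, 8.70 and 8.74 against 7.90, 7.83, 8.14 and 7.92. The CD8+ arrays were the higher ones throughout, by 0.76 ± 0.08 in WT (adjusted p = 8.57e-07) and 0.82 ± 0.08 in Mst1/2-KO (adjusted p = 3.72e-07).

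Rab13, known for delivering junction proteins in epithelia, read 5.15, 5.09, 5.27 and 5.23 in WT CD8+ DCs and 4.02, 4.00, 4.04 and 4.02 in WT CD8- DCs. The WT difference was 1.17 ± 0.13, or 2.24-fold (adjusted p = 3.1e-06). Mst1/2-KO arrays spread more, 4.86, 5.46, 5.00 and 5.35 against 4.46, 4.02, 3.82 and 3.93, and differed by 1.11 ± 0.13 (adjusted p = 6.11e-06). Rab10, which carries Toll-like receptor 4 and the glucose transporter GLUT4 to the surface, was higher by 0.62 ± 0.08 in WT and 0.61 ± 0.08 in Mst1/2-KO CD8+ DCs. Rab35, of a fast recycling route, was higher by 0.71 ± 0.14 in WT (adjusted p = 0.00102) and by 0.41 ± 0.14 in Mst1/2-KO (adjusted p = 0.0495), where the groups overlapped and the call was lost when any 1 of 6 of the 8 arrays was left out. The close relatives Rab8a and Rab8b, both of surface delivery, moved in opposite directions. Rab8b was higher by 0.29 ± 0.07 in WT and 0.40 ± 0.07 in Mst1/2-KO CD8+ DCs, while Rab8a was lower by -0.32 ± 0.07 and -0.21 ± 0.07. A second probe set of Rab8a gave -0.29 in WT (adjusted p = 0.011) and -0.11 in Mst1/2-KO (adjusted p = 0.398), and the Mst1/2-KO call of Rab8a was lost without any 1 of 6 arrays.

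Early endosome genes were split. Rab21, which moves integrins through early endosomes, read 9.36, 9.53, 9.48 and 9.48 in WT CD8+ DCs and 9.83, 9.91, 10.10 and 9.88 in WT CD8- DCs. All CD8+ arrays lay below all CD8- arrays, by -0.47 ± 0.08 (adjusted p = 3e-04). In Mst1/2-KO cells Rab21 read 9.33, 9.28, 9.43 and 9.31 against 9.68, 9.57, 9.71 and 9.41, with overlap. That difference was -0.25 (adjusted p = 0.0336). Rab24, an atypical Rab linked to autophagy, was grouped here with the early endosome genes. In WT it read 8.12, 8.31, 8.30 and 8.18 against 9.08, 8.98, 9.21 and 8.95. The difference was -0.83 ± 0.10, or 1.78-fold lower (adjusted p = 3.49e-06). The Mst1/2-KO arrays of Rab24 were also apart, 8.39, 8.33, 7.97 and 8.42 against 8.98, 9.16, 9.06 and 9.06, with a difference of -0.79 ± 0.10 (adjusted p = 6.91e-06). Rab31, which works between the trans-Golgi and early endosomes, was higher by 0.61 ± 0.14 in WT CD8+ DCs (adjusted p = 0.00374), although the groups overlapped, 6.34, 6.50, 6.06 and 6.57 against 5.89, 5.38, 5.62 and 6.12. Rab5a, Rab5b and Rab5c, the Rabs of early endosome fusion, were not called in either genotype.

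The largest difference among all 57 genes was that of Rab37, a Rab of regulated secretion known from mast cell granules. It read 4.77, 4.54, 4.50 and 3.85 in WT CD8+ DCs and 6.94, 6.82, 7.02 and 6.83 in WT CD8- DCs. Mst1/2-KO arrays read 4.23, 4.25, 3.96 and 4.39 against 6.50, 6.63, 6.35 and 6.09. The subsets were more than a full log2 unit apart on every array of either genotype. The difference was -2.49 ± 0.16 in WT, or 5.61-fold lower (adjusted p = 1.84e-09), and -2.19 ± 0.16 in Mst1/2-KO (adjusted p = 1.11e-08). Rab3a, known for exocytosis in neurons, was higher by 0.47 ± 0.15 in WT CD8+ DCs (adjusted p = 0.0341), with overlapping groups. That call was lost when any 1 of 5 arrays was left out, which were replicates 2 and 4 of the CD8+ and replicates 1, 2 and 3 of the CD8- group.

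In Mst1/2-KO cells the subset comparison also called 21 Rab genes, 15 higher and 6 lower (36.8%), against 19.2% of all genes, with 2203 genes higher and 2062 lower. Among genes above the median gene the shares were 46.7% of Rab genes and 34.4% of all. The groups did not overlap for 22 Rab genes (38.6%), against 21.9% of all. The genotypes shared 18 of the called genes, which is 85.7% of each set of 21, and 0 of these moved in opposite directions. Over the 57 genes, the WT and Mst1/2-KO subset differences, which come from separate arrays, correlated with a Pearson's r of 0.93 and a Spearman's rho of 0.82, against an r of 0.89 over all genes. Genes are not independent replicates, and all 16 arrays share an experiment label. Rab31, Rab33b and Rab3a were called in WT but not in Mst1/2-KO. Rab30, Rab23, which is known from the cilium, and Rab3d, of secretory granules, were called in Mst1/2-KO but not in WT, at 0.92 ± 0.13 (adjusted p = 3.19e-05), 0.43 ± 0.12 (adjusted p = 0.0169) and -0.46 ± 0.15 (adjusted p = 0.0419). Of these 6 genes, the genotypes' subset differences were themselves called different for Rab30. A second probe set of Rab3d gave -0.13 in Mst1/2-KO (adjusted p = 0.413), and its call was lost with all probe sets of a gene averaged. Leaving out 1 array changed the Mst1/2-KO count to between 16 and 19, and besides the genes above Rab1b was lost without any 1 of 4 arrays, Rab21 and Rab3d without any 1 of 6, and Rab23 without replicate 3 of the CD8- group.

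**Figure D2:**
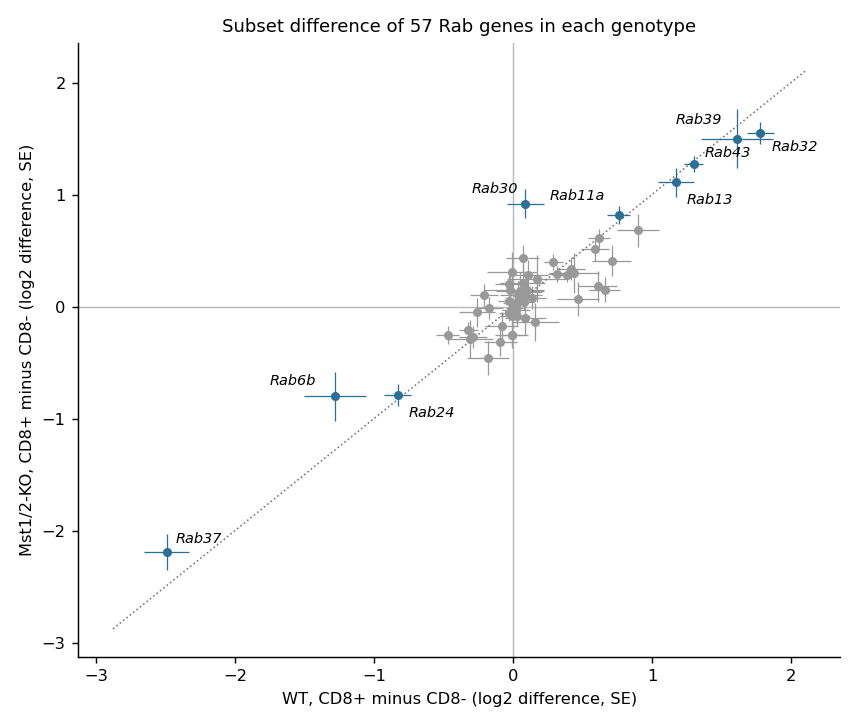
CD8+ minus CD8- difference (log2) of each of the 57 Rab genes in WT (horizontal axis) and Mst1/2-KO DCs (vertical axis), with SE bars and a dotted line of equality. Rab32, Rab39, Rab43 and Rab13 sit at the upper right and Rab37 at the lower left in either genotype, and Rab30 lies off the line, near 0 in WT and at 0.92 in Mst1/2-KO.

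Markers of other cells moved with the WT subset comparison. In CD8+ DCs, 9 of 11 macrophage and monocyte markers were lower (mean signal 6.76 to 7.14 against 8.02 to 8.41), as were 6 of 7 T cell markers (4.12 to 4.38 against 4.79 to 5.84) and 6 of 7 NK cell markers (4.61 to 4.79 against 5.65 to 6.72). Of 9 B cell markers, 4 were lower and 1 higher (4.30 to 4.38 against 4.90 to 5.16). Of 9 plasmacytoid DC markers, 3 were lower and 1 higher (6.67 to 6.87 against 6.99 to 7.49). Of 10 DC maturation genes, 3 were higher and 1 lower (8.80 to 9.25 against 8.52 to 8.68). In the Mst1/2-KO subset comparison, 8 of 11 macrophage and monocyte (6.90 to 7.23 against 8.28 to 8.44), 6 of 7 T cell (4.05 to 4.19 against 4.89 to 5.27) and 4 of 7 NK cell markers (4.63 to 4.80 against 5.44 to 6.08) were lower in CD8+ DCs. There, 5 of 9 plasmacytoid DC markers were lower (6.65 to 6.78 against 7.83 to 8.22), 3 of 9 B cell markers were lower and 1 higher (4.13 to 4.42 against 4.55 to 4.75), and 5 of 10 DC maturation genes were lower and 2 higher (7.53 to 7.89 against 7.56 to 8.05). Their part in the Rab differences was not tested.

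Some genes of proteins that act on Rabs also differed in signal between the WT subsets. Of 33 GEFs and their adaptors, 4 were higher and 10 lower in CD8+ DCs, of 37 TBC-domain GAPs 5 were higher and 8 lower, and of 59 effectors 6 were higher and 9 lower, beside the 21.0% of all genes called in either direction. Dennd3, a GEF of Rab12, was lower by -2.72 ± 0.11 (adjusted p = 3.6e-12), and Hps4, a subunit of the BLOC-3 GEF of Rab32, was higher by 0.96 (adjusted p = 9.06e-06). The effectors that differed most were Mreg, which encodes melanoregulin, lower by -1.94 (adjusted p = 6.95e-07), Mical3, lower by -1.40, and the myosin motor Myo5a, lower by -1.32. Micall2, an effector of Rab13, was higher by 1.24 (adjusted p = 2.66e-08). Dennd1b, a GEF of Rab35, was higher by 0.98. Rin2, a GEF of Rab5, was lower by -2.06. Tbc1d4, a GAP of Rab10, was lower by -1.12, Tbc1d30 by -1.55, Tbc1d16 by -0.98 and Evi5 by -0.96. Of 12 genes of prenylation and GDP dissociation, 5 were higher and 2 lower. The 2 Rab escort proteins parted, Chm being lower by -0.67 and Chml higher by 0.63. Of 37 SNAREs, the fusion proteins of endosome and surface, 11 were higher and 3 lower. Stx3 lay at 1.46, Stx2 at 1.13, Vamp3 at 0.79 and Vti1a at -0.77. The median difference of all genes was 0.02. In the Mst1/2-KO subset comparison, 8 GAPs were higher and 5 lower, and 8 effectors higher and 4 lower, unlike in WT. There, 4 GEFs were higher and 9 lower, and 10 SNAREs higher and 2 lower, beside the 19.2% of all genes called. The GAPs that differed most there were Tbc1d8 at 0.92, Evi5 at -0.87, Tbc1d14 at 0.86 and Rabgap1l at 0.83.

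The genotype comparison within each subset asked which Rab genes differed when the Hippo kinases were deleted. In CD8- DCs, 3 of 57 Rab genes were called, Rab30 and Rab21 lower and Rab31 higher in Mst1/2-KO, which is 5.26% against 6.68% of all genes, with 864 genes higher and 618 lower. Among genes above the median gene the shares were 6.67% of Rab genes and 12.2% of all. The groups did not overlap for 8 Rab genes (14%), against 12.0% of all. At an unadjusted p under 0.05 there were 16 Rab genes, 28.1% against 18.1% of all genes.

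Rab30, a Rab of the Golgi, read 9.14, 9.01, 9 and 8.76 in WT CD8- DCs and 7.75, 8.24, 7.88 and 7.77 in Mst1/2-KO CD8- DCs. Every Mst1/2-KO array lay below every WT array. The difference was -1.07 ± 0.13 (95% interval -1.34 to -0.80), or 2.1-fold lower, with an adjusted p of 9.3e-05. In CD8+ DCs the same gene read 9.42, 8.93, 8.99 and 8.94 in WT and 8.64, 8.97, 8.85 and 8.85 in Mst1/2-KO. These groups overlapped, and the difference was -0.24 ± 0.13 (95% interval -0.51 to 0.03, adjusted p = 0.549). The Mst1/2-KO effect in CD8- minus that in CD8+ DCs was -0.83 ± 0.18 (95% interval -1.21 to -0.45, adjusted p = 0.0484). It was the 1 Rab gene of 57 called for this difference (1.75%), against 0.559% of all genes. The call for the difference sat close to its threshold. It was kept without replicate 2 of the Mst1/2-KO CD8-, replicate 4 of the WT CD8- or replicate 1 of the WT CD8+ group and lost without any other single array of the 16, with adjusted p up to 0.104, while its value stayed between -0.95 and -0.78.

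**Figure D3:**
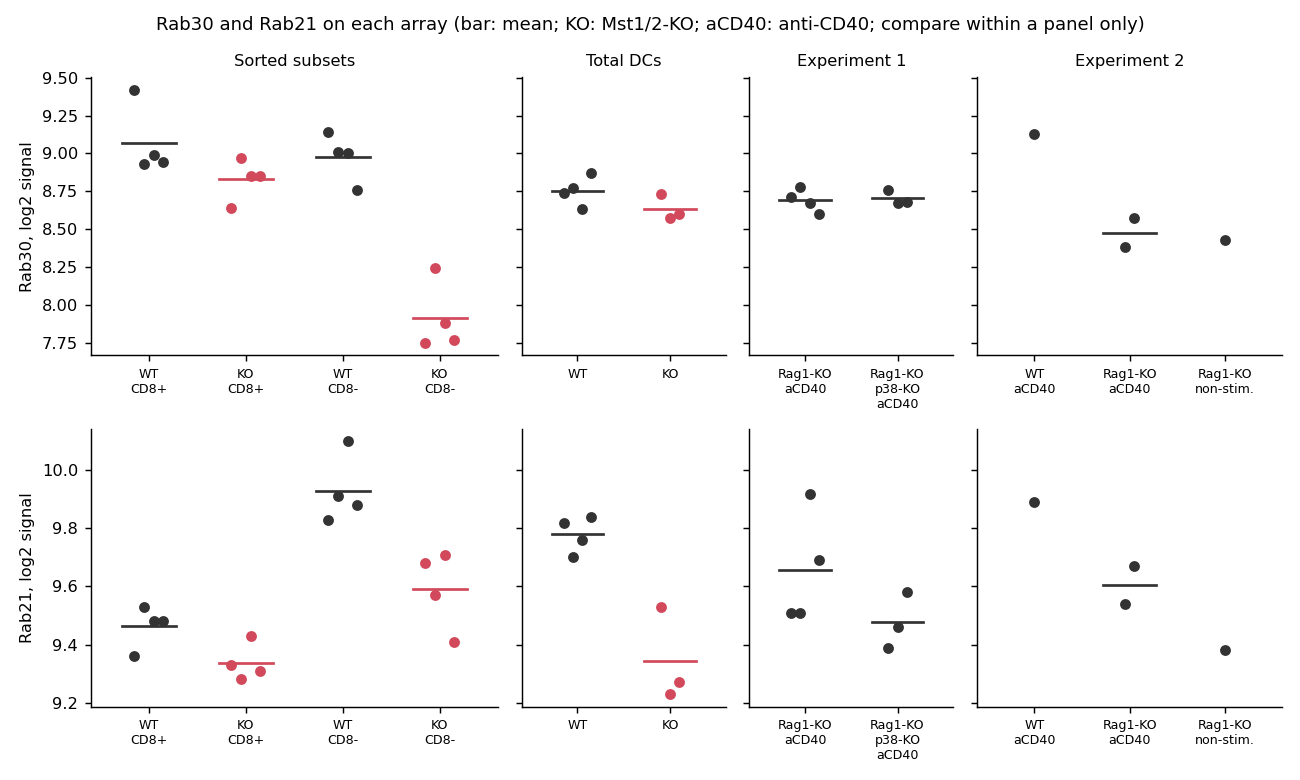
Log2 signal (vertical axis) of Rab30 and Rab21 on each array, in panels by experiment, with levels comparable within a panel only. Rab30 is lower in Mst1/2-KO CD8- DCs than in the other 3 sorted groups, and Rab21 is lower in the Mst1/2-KO than in the WT arrays of CD8- and of total DCs.

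Rab21 read 9.83, 9.91, 10.10 and 9.88 in WT and 9.68, 9.57, 9.71 and 9.41 in Mst1/2-KO CD8- DCs, with no overlap. The difference was -0.34 ± 0.08, or 1.26-fold lower (adjusted p = 0.0166), and the call was lost without replicate 4 of the Mst1/2-KO or replicate 3 of the WT group. Rab31 read 5.89, 5.38, 5.62 and 6.12 in WT and 6.15, 6.21, 6.29 and 6.36 in Mst1/2-KO CD8- DCs. The groups were apart by a small gap. The difference was 0.50 ± 0.14, or 1.41-fold (adjusted p = 0.0422), and the call was kept only without replicate 1 or replicate 4 of the WT group when an array was left out. Just past the threshold lay Rab33b at 0.37 ± 0.11 (adjusted p = 0.0569), Rab32 at 0.32 ± 0.10 (adjusted p = 0.0625) and Rab37 at -0.51 ± 0.16 (adjusted p = 0.0676). The count of called Rab genes rose to 5 without replicate 2 of the Mst1/2-KO group and to 6 without replicate 1 of the WT group, and dropped to 1 without replicate 4 of the Mst1/2-KO group.

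Marker lists of DCs, of other cells and of DC maturation moved with genotype in CD8- DCs. Of 9 CD8+ DC markers, 5 were higher in Mst1/2-KO (mean signal 8.10 to 8.54 against 7.63 to 8.19), and of 10 CD8- DC markers, 5 were lower and 3 higher (8.34 to 8.66 against 8.88 to 9.08). Of 9 plasmacytoid DC markers, 4 were higher (7.83 to 8.22 against 6.99 to 7.49), of 9 B cell markers 3 were lower (4.55 to 4.75 against 4.90 to 5.16), and of 10 DC maturation genes 7 were lower (7.56 to 8.05 against 8.52 to 8.68). Of 11 macrophage and monocyte markers, 1 was higher, Ly6c2 by 1.94 (adjusted p = 0.00349), and 1 lower, Adgre1 by -1.05 (adjusted p = 5e-04). The part of all these lists in the changes of Rab30, Rab21 and Rab31 was not tested.

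In CD8+ DCs no Rab gene was called between genotypes by limma, against 0.888% of all genes. At an unadjusted p under 0.05 there were 0 Rab genes, against 10.6% of all, and the groups did not overlap for 0 Rab genes, against 6.33% of all. The count was 0 under every other setting tried. Rab differences ran from -0.28 to 0.38, and the median 95% interval reached 0.25 to either side. The smallest p belonged to Rab18, a Rab of the ER and lipid droplets, at 0.20 ± 0.10 (adjusted p = 0.499). Of 10 DC maturation genes, 7 were lower in Mst1/2-KO in this subset as well (7.53 to 7.89 against 8.80 to 9.25), beside no called Rab gene.

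**Figure D4:**
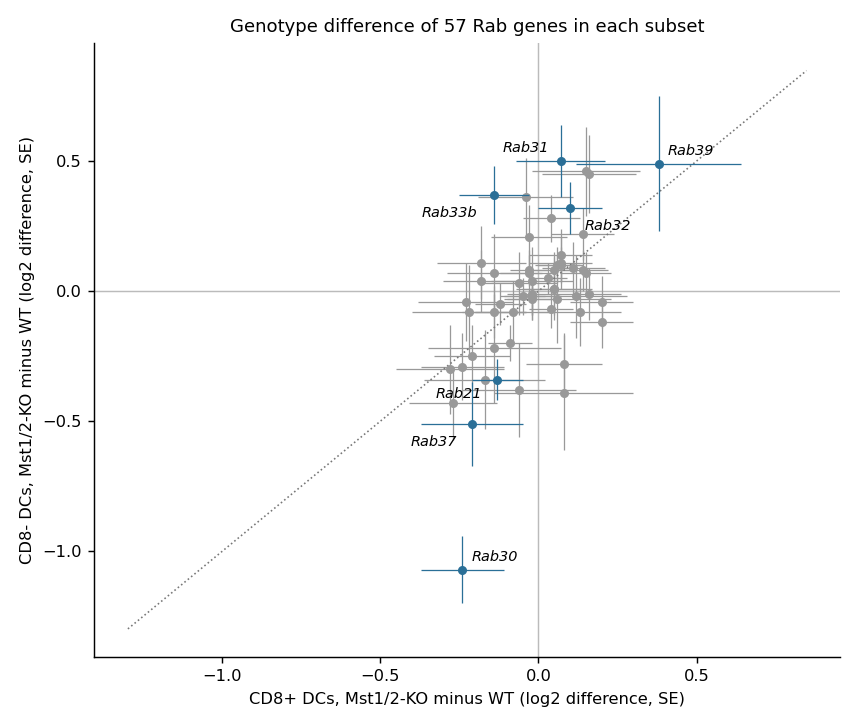
Mst1/2-KO minus WT difference (log2) of each of the 57 Rab genes in CD8+ (horizontal axis) and CD8- DCs (vertical axis), with SE bars. Rab30 lies at -1.07 in CD8- DCs and at -0.24 in CD8+ DCs, and every gene stays between -0.28 and 0.38 in CD8+ DCs.

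Several Rab partners differed between genotypes. Mreg, a partner of melanosome transport counted here among the effectors, was lower in Mst1/2-KO by -1.96 ± 0.20 in CD8- DCs (adjusted p = 2.14e-05) and by -2.73 ± 0.20 in CD8+ DCs (adjusted p = 5.73e-07), or 6.64-fold. Mical3, a Rab8-binding oxidoreductase, was lower by -1.03 in CD8- DCs (adjusted p = 4.61e-05) and by -0.65 in CD8+ DCs (adjusted p = 0.00669). In CD8- DCs, 0 of 37 GAPs were higher and 6 lower, led by Tbc1d30 at -1.32 (adjusted p = 0.00031) and Tbc1d4 at -0.73. Of 33 GEFs, 3 were higher and 2 lower, and of 59 effectors 0 were higher and 4 lower, beside the 6.68% of all genes called (864 higher and 618 lower). Chml was higher by 0.84 and Chm lower by -0.30 in Mst1/2-KO CD8- DCs. Of 37 SNAREs, 1 was higher there, Stx3 by 0.84 (adjusted p = 0.003), and 1 lower, Stx17 by -0.29 (adjusted p = 0.0437). In CD8+ DCs the called partners were Mreg, Mical3 and the SNARE Stx11, at -0.38.

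In total DCs no Rab gene passed limma's threshold between Mst1/2-KO and WT, against 0.848% of all genes. At an unadjusted p under 0.05 there were 11 (19.3% against 13.2% of all genes), and the groups did not overlap for 8 (14%), against 13.8% of all. Other settings called between 0 and 4. Rab32 came nearest, with 8.58, 8.67, 8.35 and 8.83 in WT and 9.28, 9.13 and 9.22 in Mst1/2-KO. Its Mst1/2-KO arrays all lay above the WT arrays, by 0.60 ± 0.12 (95% interval 0.33 to 0.87, adjusted p = 0.0555). Rab21, which fell in Mst1/2-KO CD8- DCs, read 9.82, 9.70, 9.76 and 9.84 in WT and 9.53, 9.23 and 9.27 in Mst1/2-KO total DCs, apart in the same direction, by -0.44 ± 0.10 (adjusted p = 0.0931). Rab30 read 8.74, 8.77, 8.63 and 8.87 against 8.73, 8.57 and 8.60, with overlap and a difference of -0.12 ± 0.10 (95% interval -0.33 to 0.10). The next smallest p belonged to Rab11a at 0.31 (adjusted p = 0.208), Rab9, of retrieval from late endosomes to the Golgi, at -0.35 (adjusted p = 0.232), and Rab26, of secretory granules, at -0.36 (adjusted p = 0.246).

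Set beside the sorted WT subsets, the genotype differences of Rab genes in total DCs mostly had the sign of the CD8+ minus CD8- difference. Of the 16 Rab genes higher in WT CD8+ DCs, 15 had a difference above 0 in total DCs, with a median of 0.23, and of the 5 lower genes 4 lay below 0, with a median of -0.09. Among all genes called higher in WT CD8+ DCs, 83.2% lay above 0 with a median of 0.17, and among those called lower 71.9% lay below 0 with a median of -0.13. The correlation over 57 Rab genes was 0.63 (Pearson) and 0.61 (Spearman), against a Pearson's r of 0.42 over all genes, from arrays that are not shared. Markers moved beside it. The mean signal of the CD8+ DC list was 9.72 to 9.80 in Mst1/2-KO and 9.19 to 9.73 in WT total DCs, with 0 of 9 called. That of the CD8- DC list was 6.51 to 7.14 and 7.27 to 7.66, with 2 of 10 called lower. Of 10 DC maturation genes 4 were lower, with a mean signal of 7.77 to 8 against 8.58 to 9.07. Their part in the Rab differences was not tested. Of 59 effectors 1 was higher and 2 were lower in Mst1/2-KO total DCs, and of 37 GAPs 1 was lower, beside 0.848% of all genes called. Mreg was lower by -2.04 (adjusted p = 0.00154), Mical3 by -1.09 and Tbc1d30 by -1.01, while the effector Bicd2 was higher by 0.5 (adjusted p = 0.0429).

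**Figure D5:**
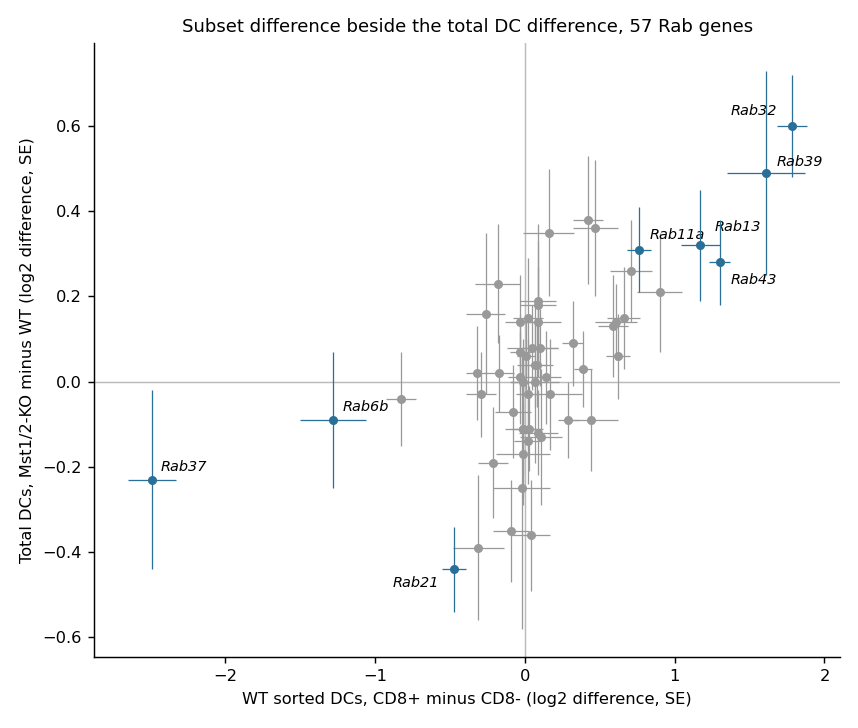
Mst1/2-KO minus WT difference in total DCs (vertical axis, log2) against the CD8+ minus CD8- difference in WT sorted DCs (horizontal axis, log2) for the 57 Rab genes. Of the 16 genes called higher in CD8+ DCs, 15 lie above 0 on the vertical axis, with Rab32 at 0.60.

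Experiment 1 compared Rag1-KO p38-KO with Rag1-KO DCs after anti-CD40. By limma no Rab gene was called, and 0% of all genes were. At an unadjusted p under 0.05 there were 4 Rab genes (7.02% against 8.41% of all), the groups did not overlap for 5 (8.77%), against 7.48% of all, and every other setting also called 0. Rab3a had the smallest p, with 4.55, 4.75, 4.45 and 4.61 in Rag1-KO and 5.34, 5.80 and 4.81 in Rag1-KO p38-KO. The groups were apart, by 0.72 ± 0.22 (adjusted p = 0.515). Rab7 lay at -0.17 ± 0.05 (adjusted p = 0.553) and Rab24 at 0.23 ± 0.08 (adjusted p = 0.556). Rab30 read 8.71, 8.78, 8.67 and 8.60 against 8.76, 8.67 and 8.68, a difference of 0.02 ± 0.06 (95% interval -0.12 to 0.15). Mapk14, one of the genes for p38, read 8.38, 8.48, 8.23 and 7.88 in Rag1-KO and 8.54, 8.51 and 8.38 in Rag1-KO p38-KO arrays, and so was not lower in the latter. Which p38 gene was deleted, and where the probes lie, is not in the labels, so the genotype is given as labelled. In this experiment 50.3% of probe sets carried a value that was equal to 5 decimals on at least 2 of the 7 arrays, against 0.153% to 2.6% in the other experiments. Of the 57 Rab genes 24 did so, and 11 had the same value on at least 3 arrays. Some marker lists lay apart between the groups, although limma called none of their genes. The mean signal of the DC maturation list was 7.55 to 7.97 in Rag1-KO p38-KO and 8.32 to 9.25 in Rag1-KO arrays, and that of the neutrophil list 3.95 to 5.33 and 5.74 to 6.75. The part of the equal values and of these markers in the Rab results was not tested.

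Experiment 2 set single arrays against the 2 Rag1-KO arrays with anti-CD40, which serve both comparisons. The spread was pooled over the 11 arrays of experiments 1 and 2, and the lone array was assumed to vary like the others. Of these, 7 are the arrays of experiment 1, where 50.3% of probe sets carried an equal value on at least 2 arrays. What the equal values did to the pooled spread, and so to the SE and p of both comparisons, was not tested. For anti-CD40 against no stimulation, limma called 0 Rab genes, against 0.0361% of all genes, and 6 had an unadjusted p under 0.05 (10.5% against 13.1% of all). Rab27a, which docks secretory granules and lysosome-related organelles, differed by 0.44 ± 0.15 (adjusted p = 0.264). Rab44, a large atypical Rab, read 4.99 and 4.96 with anti-CD40 and 4.25 without, a difference of 0.73 ± 0.26 (adjusted p = 0.285). Neither passed the test. The mean signal of the DC maturation list was 8.57 to 9.04 with anti-CD40 and 7.98 without, and that of the neutrophil list 6.74 to 7.09 and 5.87, with no gene of either called, and their part was not tested.

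For Rag1-KO against WT, both with anti-CD40, limma called 0 Rab genes, against 0.365% of all genes, and 6 had an unadjusted p under 0.05 (10.5% against 14% of all). Rab30 read 8.38 and 8.57 on the Rag1-KO arrays and 9.13 on the WT array, a difference of -0.66 ± 0.11 (95% interval -0.91 to -0.40, adjusted p = 0.0598). Without replicate 3 of the Rag1-KO group the adjusted p was 0.0317, but that sets 1 Rag1-KO array against 1 WT array, with all of the spread taken from other groups. Rab38, the partner of Rab32 in lysosome-related organelles, read 5.70 and 5.73 against 6.74, a difference of -1.03 ± 0.23 (adjusted p = 0.113). Beside these, 3 of 9 B cell markers were lower in Rag1-KO (mean signal 4.07 to 4.11 against 4.78). Of 7 T cell markers 1 was lower, while the mean of that list was 4.80 against 4.54. The neutrophil list lay at 6.74 to 7.09 against 5.22 and the NK cell list at 5.87 to 6.16 against 4.71, with no gene of either called. Their part in the Rab differences was not tested. A fit to the 4 arrays of experiment 2 alone, chosen after seeing the data, called 0 Rab genes in both comparisons, with an adjusted p of 0.395 for Rab30 and 0.164 for Rab38. In experiments 1 and 2, 0 genes of each partner list were called by limma.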

How the data were processed

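Arrays of DCs sorted from mouse spleen were labelled with a NuGEN amplification kit, per the labels' protocols. The deposited values are log2 signals, normalized by the authors, with RMA and Partek 6.6 named in the submitters' processing notes. The genome build is not given in the sources used here. All 34 deposited array columns were used, with 41155 probe sets each. Of these, 25335 had a gene in the platform annotation and 23521 exactly 1 symbol, which gave 22180 genes, each by its probe set of highest mean. Digits beyond the first 5 decimals are shared among the arrays of an experiment label for 99.9% of probe sets and across labels for 0.00972%. So a constant per probe set and label is contained in the values.

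The model was limma's (version 3.58.1, R 4.3.3) with a mean per group (lmFit, eBayes), tested two-sided with moderated statistics. It was also run on simulated normal values, drawn independently for each array, without paired arrays or the equal values of experiment 1. Such a run cannot show how the fits behave where these occur. The 16 sorted arrays shared a fit, total DCs used their 7, experiment 1 its 7, and experiment 2 the 11 of experiments 1 and 2. Arrays carry no read depth, so precision rests on how many there were. Alternatives were cyclic loess, a filter at the median gene, trended and robust variances, other array sets, array weights, replicate blocks and leaving out each array.

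The Rab genes, the partner, marker and role lists and the motifs were chosen with earlier results of these data known. The naming rule took called Rab genes, those with the smallest p where few were called, and up to 4 called members of each partner list by size of change. Not every gene taken by this rule is named above. Its part on the brightest and dimmest genes was not applied, since signals of different probe sets are not comparable.

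Replicate numbers were checked by correlating the deviations of same-numbered arrays from their group means. These were 0.13 to 0.34 between WT CD8+ and CD8- arrays, where the numbers appeared to pair the arrays, and 0.09 to 0.21 between the Mst1/2-KO subsets. The main fits did not model this pairing. Blocks by replicate number were used only as other settings. Promoter windows came from RefSeq's table for GRCm38.p6, in which 47 of 57 Rab genes matched.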

Additional observations from a re-analysis of the deposited data

Results flagged for a closer look

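The Mst1/2-KO effect on Rab30 differed between subsets, being lower in CD8- than in CD8+ DCs by -0.83 on the log2 scale (limma, adjusted p = 0.0484), with effects of -1.07 and -0.24.

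In 16 of 216 groups of 4 arrays, 1 array stood apart from the other 3 of its group by Dixon's gap test. Chance marks about 1 in 20 groups in this way where values are independent and none are equal. In WT CD8+ DCs these were Rab30 on replicate 1 (9.42, the others 8.93 to 8.99), Rab14 on replicate 1 (6.83, the others 7.26 to 7.28), Rab43 on replicate 2 (8.90, the others 9.01 to 9.03) and Rab6a on replicate 2 (7.55, the others 7.96 to 8.04). In WT CD8- DCs, Rab8b on replicate 1 stood apart (9.76, the others 9.90 to 9.93).

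In Mst1/2-KO CD8+ DCs, Rab18 was high on replicate 3 (8.02, the others 7.51 to 7.53) and Rab1b low on replicate 2 (8.30, the others 8.53 to 8.56). In Mst1/2-KO CD8- DCs, the arrays that stood apart were replicate 3 for Rab2a (9.97, the others 9.86 to 9.87) and for Rab43 (7.77, the others 7.62 to 7.64), replicate 2 for Rab3d (5.74, the others 6.2 to 6.25) and replicate 4 for Rab7 (10.4, the others 10.55 to 10.57).

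In the Rag1-KO arrays of experiment 1, replicate 1 was low for Rab37 (5.24, the others 5.44 to 5.46) and Rab8a (9.59, the others 9.75 to 9.78). Replicate 2 was low for Rab39 (5.08, the others 5.23 to 5.25) and high for Rab6b (5.86, the others 5.14 to 5.22), and replicate 4 was high for Rab10 (9.82, the others 9.66 to 9.68). In this experiment 24 of 57 Rab genes carried a value equal on at least 2 of the 7 arrays. The part of the equal values in these flags was not tested.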

How the results depend on the processing

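No named Rab result changed direction under the other settings or with 1 array left out. Second probe sets of uncalled genes could differ in sign, as for Rab6b in total DCs (-0.09, the second probe set 0.25). Of the named Rab results under other settings, 685 kept their side of the threshold, 15 lost a call and 13 gained one. With 1 array left out, 525 kept it, 56 lost a call and 5 gained one. The count of Rab genes called between genotypes in CD8- DCs was 3, but 7 among genes above the median gene, 5 with trended and robust variances, 5 with all 34 arrays in the fit, 8 with array weights and 1 to 6 with 1 array left out. In the other direction, Rab21 and Rab31 lost their calls in a fit to only the 2 groups compared. In total DCs it was 0, but 1 above the median gene, 2 with trended and robust variances, 4 with all 34 arrays and 1 with array weights. For the difference between the subsets' genotype effects it was 1, but 0 with cyclic loess (Rab30, adjusted p = 0.0567) and 0 to 1 with 1 array left out. Without replicate 1 of the WT CD8- group the called gene was Rab33b in place of Rab30. For Rag1-KO against WT in experiment 2, leaving out 1 array gave 0 to 1, the 1 coming from a single array against a single array. The cause of these shifts was not tested.

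With the replicate number as a block, random or fixed, the WT subset comparison called 22 or 23 Rab genes and the Mst1/2-KO subset comparison 22 or 20, against 21 each. The fixed block, fitted to only the 2 groups compared, lost the calls of Rab21 and Rab31 between genotypes in CD8- DCs. It also lost those of Rab21 and Rab8a between the Mst1/2-KO subsets. All of these calls were also lost in a fit to the same 2 groups without a block, so the block's own part cannot be told. Between genotypes the deviations of same-numbered CD8- arrays correlated at 0.01 to 0.09. Between the Mst1/2-KO subsets they correlated at 0.09 to 0.21, each array best with its own number but not every pair over 0.1, so whether those numbers pair the arrays is not settled. The fixed block lost no call of a named Rab gene in the WT subset comparison. The number of arrays limits what could be called, and signals below the median gene had no called Rab gene in the subset comparisons.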
